A study of Mus musculus with 40 samples.

Results

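The 6 genes described here make prostanoids or receive them in the mouse aorta: Ptgs1, Ptgs2, Ptges, Ptgis, Ptgir and Ptger4. They were chosen by symbol, and all 6 were listed in both expression tables, among 17402 genes in the genotype experiment and 15399 in the cyclosporin A (CsA) experiment. Prostanoids are short-lived lipid signals made from arachidonic acid. The cyclooxygenases Ptgs1 (COX-1, made at a steady level by many cells) and Ptgs2 (COX-2, an early response gene in many cell types) convert arachidonic acid to prostaglandin H2. Downstream, Ptges (mPGES-1) makes prostaglandin E2 and Ptgis makes prostacyclin, the vasodilator and platelet inhibitor for which the vessel wall is known. Ptgir (the IP receptor) binds prostacyclin and Ptger4 (the EP4 receptor) binds prostaglandin E2, and both raise cyclic AMP through the G protein Gs.

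RNA-seq was run on aortas of male mice infused with angiotensin II (Ang-II, 1 µg/kg/min from osmotic minipumps), a peptide that constricts vessels and raises blood pressure. In the genotype experiment, 22 libraries came from CnB1-flox mice without Cre (CnB1-flox;Myh11-CreERT2-neg, called Cn-Ctl) or with the smooth muscle Cre (CnB1-flox;Myh11-CreERT2-pos, called SM-Cn-/-), both given 1 mg of tamoxifen a day for 5 days at 10 to 12 weeks of age and used 6 weeks later, either untreated or infused with Ang-II for 2, 6 or 24 h. The methods of the study also count mice with wild-type CnB1 and Myh11-CreERT2 among the Cn-Ctl controls. CnB1 (Ppp3r1) is the regulatory subunit of calcineurin, the phosphatase that activates NFAT transcription factors, and Myh11-CreERT2 deletes it in smooth muscle cells and leaves it in the other cells of the wall. In the CsA experiment, 18 libraries came from C57BL/6J mice, either without drug (WT, no pump before Ang-II) or after 5 days on a pump of CsA (5 mg/kg/d), a calcineurin inhibitor that reaches all cells, with no Ang-II or with Ang-II for 2 or 24 h. These mice were 10 to 12 weeks old when the CsA pumps were fitted. Each library pooled 3 aortas from which the adventitia and the perivascular tissue had been removed. Each group held 3 libraries except Cn-Ctl untreated and Cn-Ctl 24 h, with replicates 2 and 3 only. Treated Cn-Ctl, WT and CsA mice were kept only if their systolic pressure passed 130 mmHg, whereas SM-Cn-/- mice had no pressure limit, so the arms differ in how mice were selected. SM-Cn-/- mice in which the deletion, or CsA mice in which the block of NFAT in the thymus, could not be shown were also left out by the study.

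Depth was 2.73 to 10.3 M reads per library (M, 1e6; median 6.52) for the genotypes and 19.0 to 38.9 M (median 22.8) in the CsA experiment, so that low genes were counted with more error in the first. All 6 smooth muscle markers were present in every group, with a summed signal of 15723 to 48464 per library. Ppp3r1, counted over the whole gene and in all cells of the wall, ranged from 45.7 to 134 in the 10 Cn-Ctl libraries and from 41.8 to 118 in the 12 SM-Cn-/- libraries, and no comparison of these arms called it. The lowest adjusted p was 0.429 at 6 h, with a log2 difference of -0.60 ± 0.33 (SE). The level of the targeted gene thus gave no check of the genotype labels in either direction.

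The deposited value, called signal here, is about a read count per 1e6 reads. The match is rough, since the signal of a library summed to 919723 to 1.18e6 (genotype) or 877583 to 1.15e6 (CsA). Fold changes are differences of log2(signal + 0.5), which understate changes of low genes, and each adjusted p comes from limma with the Benjamini-Hochberg correction over all 14424 (genotype) or 13741 (CsA) protein-coding genes tested. "Called" means an adjusted p under 0.05. In these pools of tissue, fewer cells of a type and less RNA per cell cannot be told apart.

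The members lie at the following places on GRCm38. Ptgs1 (ENSMUSG00000047250) is at chr2:36230426-36252272 on the plus strand, Ptgs2 (ENSMUSG00000032487) at chr1:150100031-150108227 on the plus strand and Ptges (ENSMUSG00000050737) at chr2:30889471-30929863 on the minus strand. Ptgis (ENSMUSG00000017969) is at chr2:167191805-167240604 on the minus strand, Ptgir (ENSMUSG00000043017) at chr7:16906490-16910905 on the plus strand and Ptger4 (ENSMUSG00000039942) at chr15:5206661-5244187 on the minus strand. Exons of Ptgs1 share 148 bases with Gm43621, those of Ptgis 156 bases with 1110018N20Rik, and those of Ptger4 82 bases with Ttc33 and 1015 bases with the pseudogene Gm15937, each on the opposite strand. The strand setting of the counting is not given in the sources used here, so reads from these stretches cannot be told apart. Promoters were matched by symbol for 5 of the 6 members, without Ptgis.

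The 250 bases before the start of the cyclooxygenase genes are shown because calcineurin acts through NFAT factors, from the RefSeq start sites on GRCm38.p6. Capitals mark GGAAA, the core that NFAT factors recognise.
Ptgs2, chr1:150099781-150100030, plus strand: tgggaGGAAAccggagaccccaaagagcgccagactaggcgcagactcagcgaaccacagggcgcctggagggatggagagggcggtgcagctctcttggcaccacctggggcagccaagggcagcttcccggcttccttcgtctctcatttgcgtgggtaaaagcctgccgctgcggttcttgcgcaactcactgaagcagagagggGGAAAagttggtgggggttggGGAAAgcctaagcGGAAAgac
Ptgs1, chr2:36230176-36230425, plus strand: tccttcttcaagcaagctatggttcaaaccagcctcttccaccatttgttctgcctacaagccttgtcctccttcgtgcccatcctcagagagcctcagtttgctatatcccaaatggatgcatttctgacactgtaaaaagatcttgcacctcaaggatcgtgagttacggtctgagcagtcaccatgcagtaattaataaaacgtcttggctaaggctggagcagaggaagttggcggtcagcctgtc
Ptgs2 held 4 copies of GGAAA on its own strand, at -245, -42, -21 and -8 counted from the start, and Ptgs1 held none. Motifs were searched on both strands in windows from 250 bases before to 50 after the start of 27025 mouse genes. At least 1 GGAAA was present in 61.3% of these windows and at least 4 in 2.65%. Ptgir and Ptger4 each held 2 copies and Ptges held none. The Ptgs2 window also had a cyclic AMP response element half-site (TGACG, here on the opposite strand) overlapping an E-box (CACGTG) just inside the annotated first exon, both in capitals in this stretch of 30 bases.
Ptgs2, chr1:150100035-150100064, plus strand: tcaccactaCGTCACGTGgagtccgcttta
TGACG was present in 21.0% of all windows and CACGTG in 7.24%, and neither occurred in the Ptgs1, Ptges, Ptgir or Ptger4 window. The TATA core TATAA was in 25.5% of all windows and in none of these 5.

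The mRNAs also differ in the ATTTA element, which is found in many short-lived transcripts and is bound by proteins such as Zfp36 and Elavl1. In the GENCODE annotation the Ptgs2 3′ untranslated region (2445 bases, in exon 10, the last) held 14 copies, a number reached by 3.26% of 14081 genes, whose median was 2. A stretch of 30 bases that began at base 12 of this region held 4 copies, shown in capitals.
Ptgs2, chr1:150105794-150105823, plus strand: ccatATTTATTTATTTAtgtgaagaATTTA
Ptger4 had 5 copies in 1233 bases (at least as many in 23.9% of genes), Ptgir had 2 in 1786 bases (52.5%), and Ptgs1, Ptges and Ptgis had none. At least 1 copy was present in 71.6% of these genes, and mRNA decay was not measured.

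Before Ang-II, the prostacyclin synthase stood far above the other members. Per kilobase of exon, the mean signal of Ptgis in untreated aortas was 342 in WT, 231 in Cn-Ctl, 206 in CsA and 139 in SM-Cn-/-. In untreated WT the order per kilobase then ran Ptgs2 (6.20), Ptgs1 (3.62), Ptgir (0.889), Ptges (0.815) and Ptger4 (0.662). The ranges over the 3 WT libraries overlapped between Ptgs2 (3.64 to 9.21) and Ptgs1 (2.99 to 4.03), and between Ptgir (0.760 to 1.09), Ptges (0.729 to 0.978) and Ptger4 (0.409 to 0.863), while both cyclooxygenases lay above the other 3 without overlap. In untreated CsA, Ptgs1 (5.64 to 7.06) lay above Ptgs2 (2.34 to 2.93) without overlap, and in untreated SM-Cn-/- these genes overlapped (3.38 to 5.75 and 2.72 to 6.38). In untreated Cn-Ctl, Ptgs1 (3.27) and Ptgs2 (2.86) again overlapped, and Ptger4 (0.204) was lowest, under Ptges (0.642) without overlap. Ptger4 rested on 10 and 6 reads there.

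Ptgs2 rose early and strongly in Cn-Ctl aortas and was lower in SM-Cn-/- aortas at each time of Ang-II. In Cn-Ctl its signal was 11.9 and 14.3 untreated, 139, 255 and 726 at 2 h, 85.9, 128 and 68.2 at 6 h, and 40.7 and 170.5 at 24 h. Every treated Cn-Ctl library lay above both untreated ones, and the libraries at 2 h were the most spread. In SM-Cn-/- it was 15.9, 29.2 and 12.5 untreated, 70.2, 84.8 and 46.6 at 2 h, 28.2, 19.4 and 14.1 at 6 h, and 14.7, 9.50 and 14.1 at 24 h. These aortas were above their untreated level at 2 h without overlap, and overlapped it at 6 and 24 h.

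**Figure D1:**
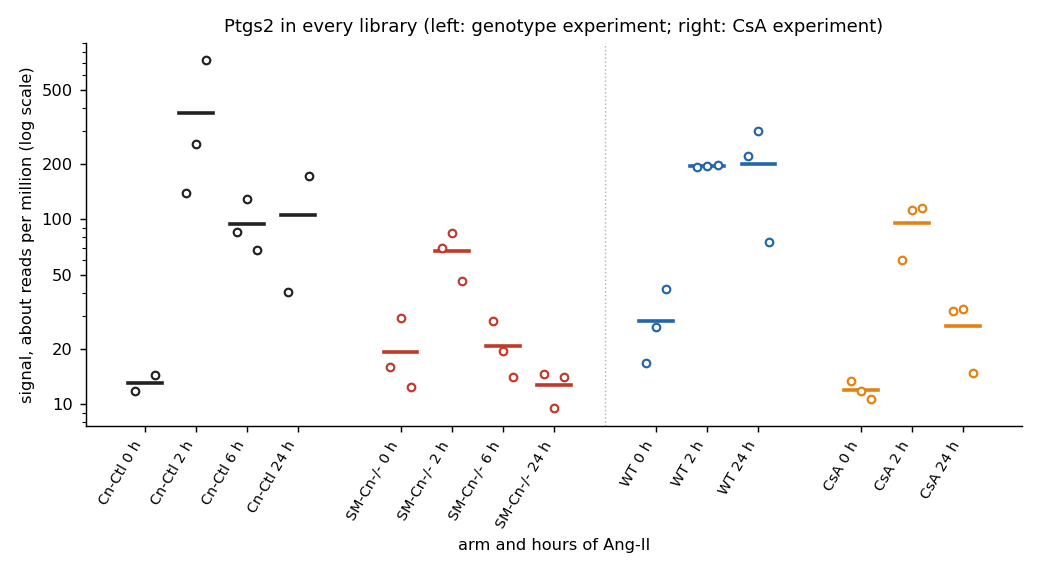
Ptgs2 signal (about reads per 1e6, log axis) in each of the 40 libraries by arm and hours of Ang-II; circles are libraries, bars are group means, and the dotted line parts the experiments. The 3 Cn-Ctl libraries at 2 h reach 139 to 726 and the 3 SM-Cn-/- libraries 46.6 to 84.8, while WT stays at 75.2 to 300.1 at 24 h and CsA falls to 14.7 to 32.6.

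The 2 h response of Ptgs2 in Cn-Ctl was a log2 fold change of 4.45 ± 0.55 (SE), or 21.9-fold, with an adjusted p of 1.26e-05, and Ptgs2 was the 1 member of 6 called, where 6.23% of all genes were. At 6 h it was 2.75 ± 0.55 (adjusted p 0.00446) and at 24 h 2.63 ± 0.60 (adjusted p 0.0114). In the same arm 3.97% of all genes were called at 6 h and 5.62% at 24 h, and 2 of the 6 members at each time. From 2 to 24 h the Cn-Ctl level fell by 1.82 on the log2 scale (adjusted p 0.0466, where 7.37% of genes were called), although these groups overlapped. The call at 2 h held without any 1 of the 5 libraries. The call at 6 h was lost without untreated replicate 2 (2.62, adjusted p 0.0808), and the call at 24 h without untreated replicate 2 (2.50, adjusted p 0.103), untreated replicate 3 (2.76, adjusted p 0.0629) or 24 h replicate 3 (1.61, adjusted p 0.283), or with the spread of these 4 libraries only (adjusted p 0.0779). The fall from 2 to 24 h was not called without 24 h replicate 2 (-0.79, adjusted p 0.437), 2 h replicate 2 (-1.92, adjusted p 0.0795) or 2 h replicate 3 (-1.17, adjusted p 0.196), nor with quantile normalization, all genes listed, edgeR or the spread of these 5 libraries only (adjusted p 0.124, 0.0519, 0.0597 and 0.182).

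In SM-Cn-/- aortas the 2 h response of Ptgs2 was 1.83 ± 0.49 (3.56-fold, 95% interval 0.81 to 2.85), with an adjusted p of 0.0798. None of the 6 members was called at 2 h in this arm by limma, edgeR or DESeq2, where limma called 1.13% of genes. In limma 1 (Ptgs2) had an unadjusted p under 0.05, beside 1870 of all 14424 genes. With the spread taken from these 6 libraries only, Ptgs2 was called (adjusted p 0.0173), and so it was without untreated replicate 2, the highest untreated library (2.17, adjusted p 0.0430). At 6 h the response was 0.13 ± 0.49 (95% interval -0.89 to 1.15) and at 24 h -0.50 ± 0.49 (-1.53 to 0.52), and neither was called. Of the 6 members, 1 (Ptgis) was called at 6 h, where 2.34% of all genes were. At 24 h limma, edgeR and DESeq2 called none, beside 0.79% of all genes called by limma. In limma 1 (Ptgis) had an unadjusted p under 0.05, beside 1660 of all 14424 genes. The fall from 2 to 24 h in this arm was -2.33 ± 0.49 (5.04-fold lower, adjusted p 0.0106, against 3.65% of genes called) with no overlap. That call was lost without 24 h replicate 2 (-2.14, adjusted p 0.0611), 2 h replicate 1 (-2.28, adjusted p 0.0759) or 2 h replicate 2 (-2.15, adjusted p 0.0721).

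Set side by side, the genotypes did not differ in Ptgs2 before Ang-II beyond their spread: the log2 difference, SM-Cn-/- less Cn-Ctl, was 0.45 ± 0.55 (95% interval -0.69 to 1.59), and limma called 2 genes in all, 0.0139% of those tested, none of them a member. Of the members, 3 (Ptger4, Ptges and Ptgis) had an unadjusted p under 0.05 there in limma, beside 757 of all 14424 genes. Neither edgeR nor DESeq2 called a member there. At 2 h Ptgs2 was 4.50-fold lower in SM-Cn-/- (-2.17 ± 0.49, adjusted p 0.0118), at 6 h 4.51-fold lower (-2.17 ± 0.49, adjusted p 0.0203) and at 24 h 6.44-fold lower (-2.69 ± 0.55, adjusted p 0.00498). The groups did not overlap at any of these times. The shares of all genes called were 3.7% at 2 h, 1.98% at 6 h and 4.94% at 24 h, and Ptgs2 was the 1 member called at 6 and at 24 h. The 2 h call was lost without Cn-Ctl replicate 3 (-1.52, adjusted p 0.0727) or SM-Cn-/- replicate 3 (-1.93, adjusted p 0.0556). The 6 h call was lost without Cn-Ctl replicate 2 (-1.93, adjusted p 0.117), SM-Cn-/- replicate 2 (-2.16, adjusted p 0.0791) or SM-Cn-/- replicate 3 (-1.93, adjusted p 0.132), and the 24 h call without Cn-Ctl replicate 3 (-1.66, adjusted p 0.245).

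The test of the difference between the responses themselves missed the threshold in limma. The Ptgs2 response in SM-Cn-/- was smaller than in Cn-Ctl by a log2 difference of -2.62 ± 0.74 at 2 h (95% interval -4.15 to -1.09, adjusted p 0.172), -2.62 ± 0.74 at 6 h (-4.15 to -1.09, adjusted p 0.369) and -3.14 ± 0.78 at 24 h (-4.75 to -1.52, adjusted p 0.0720). No member was called by limma or edgeR in these tests, where limma called 0.513% of genes at 2 h, 0.0624% at 6 h and 0.513% at 24 h. Unadjusted p-values under 0.05 in limma were given to 2 members at 2 h (Ptgs2 and Ptges), 3 at 6 h (with Ptger4) and 2 at 24 h (Ptgs2 and Ptges). Of all 14424 genes, 1150 had such a p at 2 h, 873 at 6 h and 1588 at 24 h. DESeq2 on the recovered reads called Ptgs2 at 2 h (-3.04, adjusted p 0.0277) and 24 h (-3.68, adjusted p 0.00548), and limma called it at 24 h without Cn-Ctl 24 h replicate 2 (-4.16, adjusted p 0.00803). The 2 h response of Atf3, an early response transcription factor, differed between the genotypes by -3.20 ± 0.42 in limma (adjusted p 0.000808). Atf3 is named because it was called, so it is no yardstick for Ptgs2.

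In the CsA experiment Ptgs2 rose at 2 h with and without the drug, and at 24 h its level was lower with the drug. In WT the signal was 16.7, 26.3 and 42.2 untreated, 193, 195 and 196 at 2 h, and 221, 300.1 and 75.2 at 24 h. All treated WT libraries lay above the untreated ones, with replicate 3 at 24 h well under its partners. In CsA aortas it was 13.4, 11.8 and 10.7 untreated, 60.6, 113 and 115 at 2 h, and 32.0, 32.6 and 14.7 at 24 h. The CsA libraries lay below every WT library of the same time, at each of the 3 times.

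The 2 h response of Ptgs2 was 2.85 ± 0.44 in WT (7.23-fold, adjusted p 0.000232) and 2.90 ± 0.44 in CsA (7.46-fold, adjusted p 0.000395). The difference between these responses was 0.04 ± 0.62 (adjusted p 0.982), with a 95% interval of -1.26 to 1.35 that leaves room for a difference of more than 1 log2 unit either way, and its sign turned under some settings. In that test no member was called by limma, edgeR or DESeq2, none had an unadjusted p under 0.05, and 0.146% of all genes were called. Ptgs2 was the 1 member called at 2 h in WT, where 21.4% of genes were, and 1 of 3 in CsA, where 20.1% were. Against WT, the level in CsA was -1.12 ± 0.44 untreated (adjusted p 0.0711) and -1.07 ± 0.44 at 2 h (adjusted p 0.204), neither called by limma. The untreated difference was called without WT replicate 1 (-1.44, adjusted p 0.0406) and under 4 other settings, edgeR (-1.25, adjusted p 0.0491) and DESeq2 (-1.27, adjusted p 0.0282) among them.

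At 24 h the WT response stood at 2.67 ± 0.44 (6.36-fold, adjusted p 0.000222), while in CsA it was 1.03 ± 0.44 (2.04-fold, adjusted p 0.145), not called though the groups did not overlap. The level at 24 h was 6.75-fold lower in CsA than in WT (-2.76 ± 0.44, adjusted p 0.00424), and Ptgs2 was the 1 member called where 5.57% of genes were. With the spread taken from these 6 libraries only, that difference missed the threshold (adjusted p 0.0940). From 2 to 24 h the level fell by 1.87 on the log2 scale in CsA (adjusted p 0.00828, no overlap) and did not move beyond its spread in WT (-0.19 ± 0.44, 95% interval -1.11 to 0.74). The difference between the 24 h responses was -1.64 ± 0.62 (95% interval -2.94 to -0.33, adjusted p 0.101), and without WT 24 h replicate 3 it was -2.23 and called (adjusted p 0.0154). At 24 h in CsA limma and edgeR called none of the 6 members and DESeq2 called Ptgis, beside 8.97% of all genes called by limma. In limma 2 (Ptgs2 and Ptgis) had an unadjusted p under 0.05, beside 3604 of all 13741 genes. Between 2 and 24 h, 2 members were called in WT, where 36.2% of genes were, and 2 in CsA, where 18% were. For the difference of the 24 h responses 1 member (Ptgs1) was called, beside 9.42% of all genes.

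**Figure D2:**
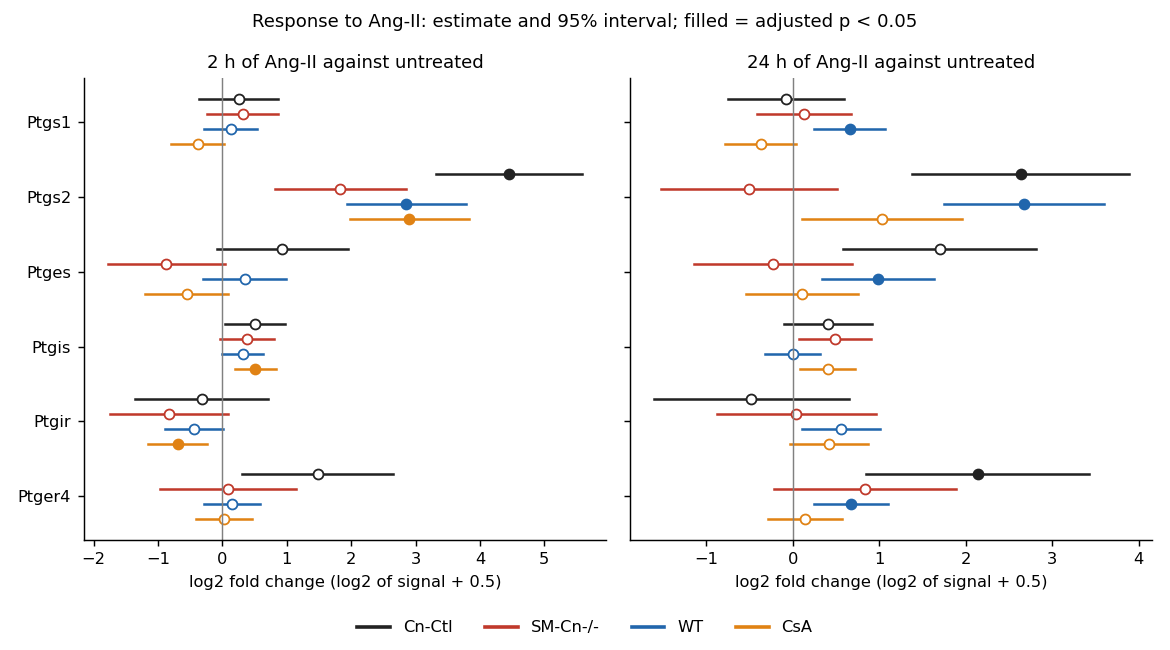
Log2 fold change (log2 of signal + 0.5) of the 6 members after 2 h (left) and 24 h (right) of Ang-II against untreated in the 4 arms; lines are 95% intervals from limma and filled circles are called. Ptgs2 reaches 4.45 in Cn-Ctl at 2 h, and its intervals at 24 h lie above 0 in Cn-Ctl, WT and CsA, overlapping those of Ptger4 and Ptges in Cn-Ctl.

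Ptgs1, the other cyclooxygenase, was called in no comparison of the genotype experiment, where its signal over the 22 libraries spanned 10.9 to 23.3. Its 2 h response in Cn-Ctl was 0.25 ± 0.29, and in SM-Cn-/- 0.31 ± 0.26. At 2 h it was 11.5, 16.2 and 18.8 in Cn-Ctl and 20.5, 19.4 and 20.4 in SM-Cn-/-, without overlap, a difference of 0.40 ± 0.26 (adjusted p 0.554). In the CsA experiment it was 14.9, 11.6 and 15.7 in untreated WT, 12.5, 19.9 and 14.4 at 2 h, and 16.9, 21.5 and 30.4 at 24 h. In CsA it was 21.9, 27.4 and 23.8 untreated, 18.5, 16.8 and 20.2 at 2 h, and 18.1, 17.4 and 20.7 at 24 h. WT aortas thus ended higher than they began, and CsA aortas began higher than WT without overlap.

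For Ptgs1 the WT rise at 24 h was 0.66 ± 0.19 (1.58-fold, adjusted p 0.0149), and the untreated CsA level was 0.78 ± 0.19 above WT (1.72-fold, adjusted p 0.00914). In CsA the 24 h response was -0.37 ± 0.19 (adjusted p 0.242), and the difference between the 24 h responses, -1.03 ± 0.27, was called (adjusted p 0.0296). The WT level was also higher at 24 h than at 2 h, by 0.53 ± 0.19 (adjusted p 0.0432). The WT rise was lost without untreated replicate 2 (0.53, adjusted p 0.0768) or 24 h replicate 3 (0.44, adjusted p 0.0838), and the rise from 2 h without 2 h replicate 1 (0.39, adjusted p 0.183), 2 h replicate 3 (0.48, adjusted p 0.117), 24 h replicate 2 (0.55, adjusted p 0.0800) or 24 h replicate 3 (0.31, adjusted p 0.227), after quantile normalization (0.42, adjusted p 0.0841) and with the spread of these 6 libraries only (adjusted p 0.117). The difference between responses was lost without WT untreated replicate 2 (-0.90, adjusted p 0.0817), WT 24 h replicate 2 (-1.05, adjusted p 0.0614) or 3 (-0.81, adjusted p 0.0556), CsA untreated replicate 2 (-0.94, adjusted p 0.0674) or 3 (-1.04, adjusted p 0.0519), or CsA 24 h replicate 1 (adjusted p 0.0697) or 2 (-0.98, adjusted p 0.0778).

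Ptgis was the most abundant member per kilobase in untreated aortas, rose at 6 h in both genotypes, and was called lower in SM-Cn-/- than in Cn-Ctl at 2 h and in untreated CsA than in untreated WT. In Cn-Ctl its signal was 546 and 639.6 untreated, 945, 934 and 669 at 2 h, 969, 1128 and 1195 at 6 h, and 1021 and 606 at 24 h. In SM-Cn-/- it was 338, 423 and 306 untreated, 394, 410.5 and 596 at 2 h, 793, 787 and 774 at 6 h, and 472, 509 and 507 at 24 h. Each SM-Cn-/- group lay below its Cn-Ctl counterpart in signal without overlap, and the highest level in either arm was at 6 h. As a share of library reads, however, the 2 h groups overlapped. SM-Cn-/- 2 h replicate 3 had 3690 Ptgis reads of 5.80 M, and Cn-Ctl 2 h replicate 3 had 4370 of 7.21 M. The rise at 6 h was 0.89 ± 0.22 in Cn-Ctl (1.85-fold, adjusted p 0.0247) and 1.15 ± 0.20 in SM-Cn-/- (2.23-fold, adjusted p 0.00283), and the difference between these rises was 0.27 ± 0.30 (95% interval -0.36 to 0.89). The Cn-Ctl call at 6 h was lost without untreated replicate 2 (0.77, adjusted p 0.254) or 3 (1.00, adjusted p 0.109), or 6 h replicate 2 (0.86, adjusted p 0.0650) or 3 (0.82, adjusted p 0.0800), after quantile normalization (0.64, adjusted p 0.0969) and with the spread of these 5 libraries only (adjusted p 0.106).

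Between the genotypes limma called Ptgis at 2 h only, where SM-Cn-/- was 1.83-fold lower (-0.87 ± 0.20, adjusted p 0.0128). Thus 2 of the 6 members were called lower at 2 h, Ptgs2 and Ptgis, beside 3.7% of all genes called. The difference was -0.75 ± 0.22 untreated (adjusted p 0.561), -0.48 ± 0.20 at 6 h (adjusted p 0.267) and -0.67 ± 0.22 at 24 h (adjusted p 0.0981), which DESeq2 called (adjusted p 0.0205). The 2 h call was lost without SM-Cn-/- replicate 1 (-0.76, adjusted p 0.0901) or 2 (-0.79, adjusted p 0.0940), or Cn-Ctl replicate 1 (-0.79, adjusted p 0.0927) or 2 (-0.79, adjusted p 0.0832). It was also lost after quantile normalization (-0.48, adjusted p 0.253). The response of Ptgis at 2 h did not differ between genotypes beyond its error (-0.13 ± 0.30, 95% interval -0.75 to 0.50).

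With CsA, Ptgis was 476, 551 and 557 untreated, 697, 831 and 727 at 2 h, and 743, 801 and 571 at 24 h. In WT it was 751, 887 and 993 untreated, 1236, 904 and 1134 at 2 h, and 936, 789.5 and 891 at 24 h. The CsA level was lower than WT in every untreated and every 2 h library. Untreated, the difference was -0.72 ± 0.15 (1.65-fold lower, adjusted p 0.00351), a call that held without any 1 of the 6 libraries. At 2 h it was -0.53 ± 0.15 (adjusted p 0.0874) and at 24 h -0.32 ± 0.15 (adjusted p 0.209). Ptgis rose at 2 h in CsA by 0.51 ± 0.15 (adjusted p 0.0257), a call lost without CsA untreated replicate 1 (0.43, adjusted p 0.0950) or 2 h replicate 2 (0.43, adjusted p 0.109) and after quantile normalization (0.24, adjusted p 0.0985), and its 2 h response in WT was 0.31 ± 0.15 (adjusted p 0.162). The smooth muscle markers moved beside it: all 6 were called lower in untreated CsA than in untreated WT, with a median log2 difference of -0.80, and their summed signal was 15723 to 17748 against 24882 to 34070. Their part in the result was not tested.

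Ptges, the inducible prostaglandin E2 synthase, had a signal of 1.95 to 12.6 in the genotype libraries (12 to 67 reads) and 2.85 to 8.47 in the CsA experiment. By limma it was called once, in WT at 24 h, where 6.23, 6.73 and 7.35 lay above the untreated 3.84, 2.87 and 2.90 (0.98 ± 0.31, 1.97-fold, adjusted p 0.0201). In Cn-Ctl it went from 2.40 and 2.65 untreated to 6.88, 4.96 and 4.21 at 2 h and 6.87 and 12.6 at 24 h, both without overlap. At 6 h it was 7.92, 1.95 and 7.37, and replicate 2 (12 reads) lay below both untreated libraries. The 24 h response of 1.70 ± 0.54 missed the threshold in limma (adjusted p 0.0689) and passed it in DESeq2 alone of 10 alternatives (adjusted p 0.0281). DESeq2 also called Ptges higher in untreated CsA than in WT. In SM-Cn-/- it was 10.1, 5.23 and 5.73 untreated and 3.41, 3.44 and 3.47 at 2 h, again without overlap but in the other direction (-0.87 ± 0.44, adjusted p 0.409). The difference between these 2 h responses was -1.80 ± 0.66 (95% interval -3.17 to -0.44, adjusted p 0.397). The WT call was lost without untreated replicate 2 (0.92, adjusted p 0.0658) or 3 (0.92, adjusted p 0.0612), or 24 h replicate 2 (0.98, adjusted p 0.0546) or 3 (0.92, adjusted p 0.0574).

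Ptgir, the prostacyclin receptor, was a low gene, at 1.42 to 9.54 in the genotype experiment (5 to 48 reads) and 1.67 to 6.95 in the CsA experiment. In CsA aortas it went from 4.48, 4.91 and 3.02 untreated to 2.58, 2.07 and 2.31 at 2 h and 5.17, 4.87 and 6.95 at 24 h. In WT it went from 3.65, 2.72 and 2.53 to 1.67, 2.71 and 1.82 at 2 h and 5.21, 4.29 and 4.18 at 24 h. In both arms the mean was thus lowest at 2 h and highest at 24 h. The fall at 2 h was called in CsA (-0.70 ± 0.21, 1.62-fold lower, adjusted p 0.0300) and not in WT (-0.44 ± 0.21, adjusted p 0.165), and the difference between them was -0.26 ± 0.30 (95% interval -0.90 to 0.38). The rise from 2 to 24 h was called in WT (0.99 ± 0.21, adjusted p 0.00188) and CsA (1.12 ± 0.21, adjusted p 0.00256), and both of these calls held without any 1 of their 6 libraries. The call in CsA at 2 h was lost without untreated replicate 1 (-0.63, adjusted p 0.0933) or 2 (-0.58, adjusted p 0.109), or 2 h replicate 2 (-0.63, adjusted p 0.106) or 3 (-0.70, adjusted p 0.0584), after quantile normalization (-0.41, adjusted p 0.174) and with the spread of these 6 libraries only (adjusted p 0.0947). In the genotype experiment Ptgir was called in no comparison, and its 2 h response in Cn-Ctl was -0.32 ± 0.50, and that in SM-Cn-/- -0.83 ± 0.44.

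Ptger4, the EP4 receptor, was counted with only 1 to 81 reads per library in the genotype experiment and 72 to 313 in the CsA experiment. In Cn-Ctl it was 1.53 and 1.19 untreated, 4.69, 5.28 and 4.06 at 2 h, 7.92, 5.23 and 3.29 at 6 h, and 6.31 and 9.19 at 24 h, all treated libraries above the untreated ones. The 24 h rise was called (2.14 ± 0.62, 4.39-fold, adjusted p 0.0460), and those at 2 h (1.48 ± 0.57, adjusted p 0.144) and 6 h (1.62 ± 0.57, adjusted p 0.123) were not. The 24 h call was lost without 24 h replicate 2 (2.39, adjusted p 0.0617) or 3 (1.88, adjusted p 0.291), or untreated replicate 2 (2.27, adjusted p 0.160) or 3 (2.00, adjusted p 0.217), and with edgeR (2.55, adjusted p 0.0781), a pseudocount of 0.1, all genes listed or the spread of these 4 libraries only (adjusted p 0.0773, 0.0560 and 0.129). In this comparison, where Ptgs2 was called too, the macrophage and leukocyte markers summed to 145 to 226 against 65.2 to 97.9 untreated, the mesothelial markers to 34.9 to 54.3 against 2.77 to 3.29 and the platelet markers to 16.2 to 16.3 against 5.39 to 6.57, all without overlap. Of these limma called 1 mesothelial marker (Upk1b) higher, and 4 of 6 macrophage and leukocyte markers had an unadjusted p under 0.05. Of all 14424 genes, 2890 had such a p. Also called higher were 1 of 6 smooth muscle and 1 of 6 adventitial fibroblast markers. Their part in the result was not tested. In SM-Cn-/- it was 5.15, 3.44 and 4.60 untreated, above both Cn-Ctl libraries (1.39 ± 0.57, adjusted p 0.835), 3.55, 6.82 and 4.12 at 2 h, 4.44, 0.215 and 1.21 at 6 h, and 6.81, 10.4 and 7.50 at 24 h. The 0.215 stands for 1 read and the 1.21 for 3 reads.

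In the CsA experiment Ptger4 was 4.75, 2.72 and 5.74 in untreated WT, 4.23, 5.29 and 4.75 at 2 h, and 6.33, 7.72 and 7.10 at 24 h. In CsA it was 7.79, 5.68 and 7.91 untreated, 8.20, 6.88 and 6.56 at 2 h, and 7.36, 8.16 and 8.02 at 24 h, with ranges that overlapped between all 3 times. The WT rise at 24 h was 0.67 ± 0.20 (1.59-fold, adjusted p 0.0169), and the untreated CsA level was 0.68 ± 0.20 above WT (1.60-fold, adjusted p 0.0234), though these untreated groups overlapped by 1 library. The WT rise was lost without untreated replicate 2 (0.40, adjusted p 0.0997) or 24 h replicate 2 (0.61, adjusted p 0.0673). The untreated difference was lost without WT replicate 2 (0.40, adjusted p 0.121), CsA replicate 1 (0.61, adjusted p 0.0782) or CsA replicate 3 (0.60, adjusted p 0.0885), after quantile normalization (0.41, adjusted p 0.134) and with the spread of these 6 libraries only (adjusted p 0.0813), which also ended the call of the WT rise (adjusted p 0.0533).

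**Figure D3:**
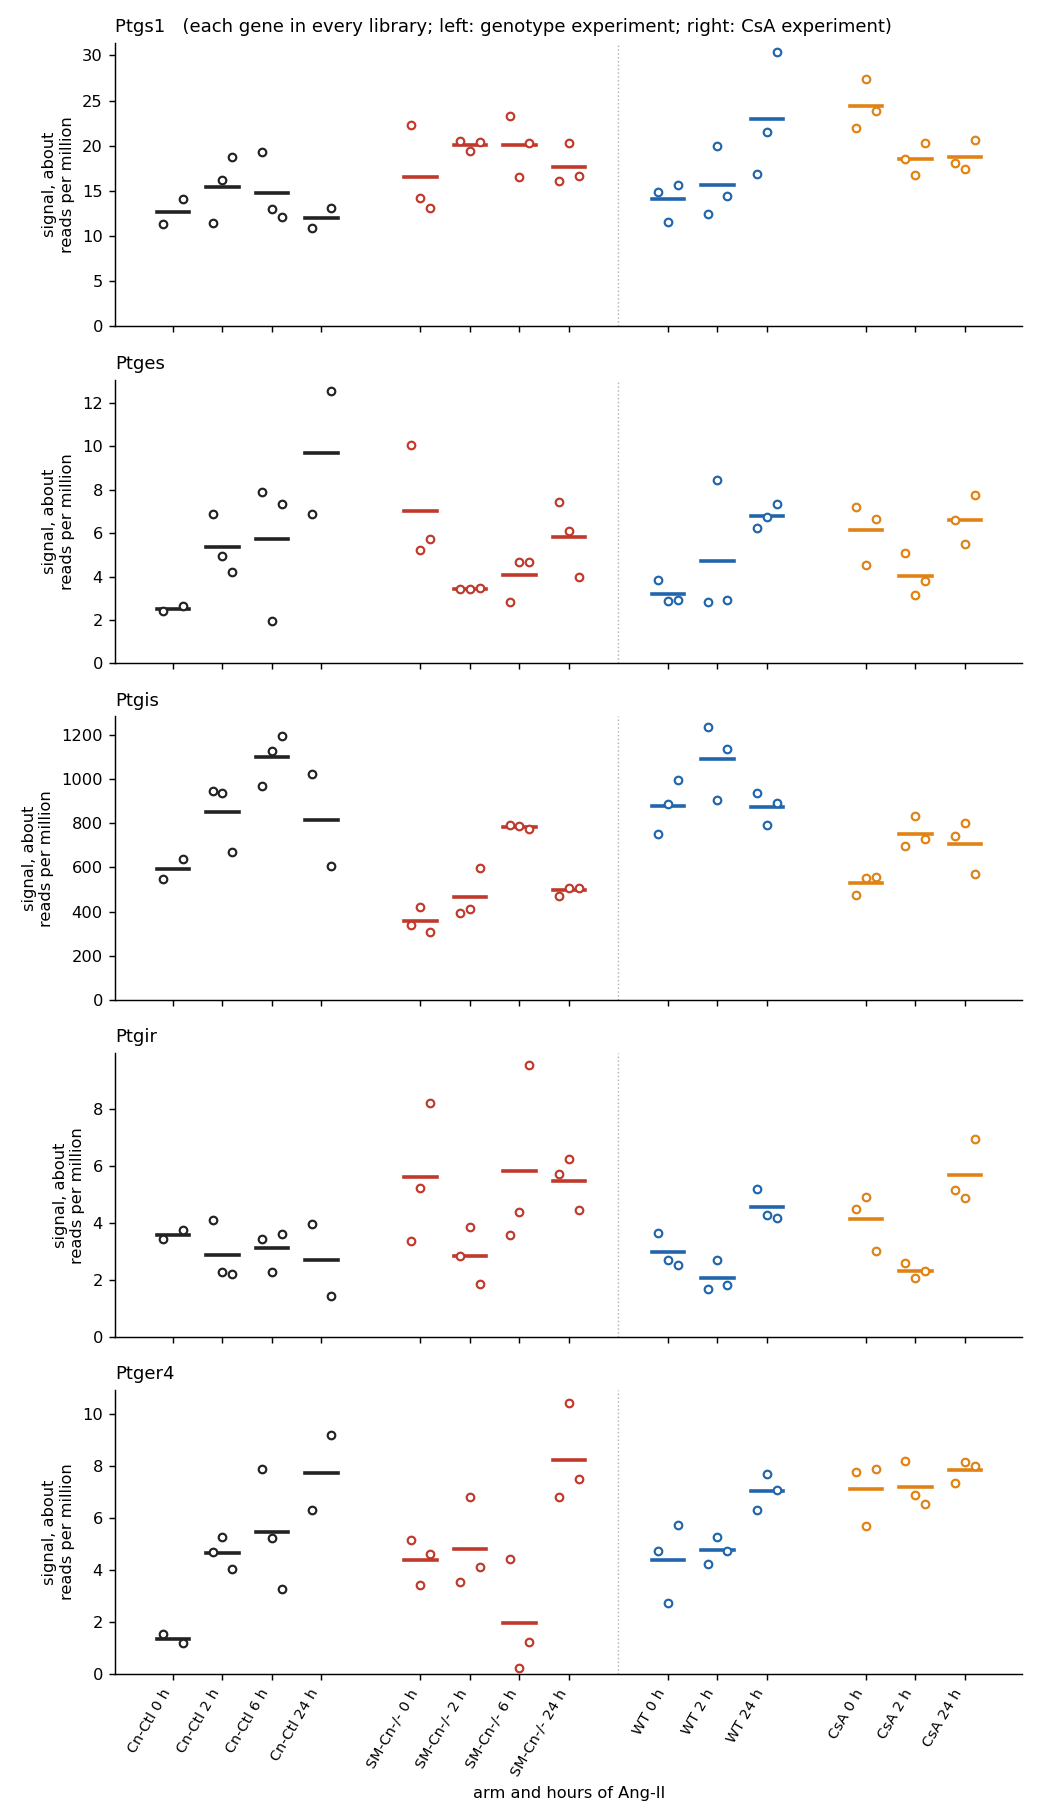
Signal (about reads per 1e6, linear axes from 0) of Ptgs1, Ptges, Ptgis, Ptgir and Ptger4 in each of the 40 libraries by arm and hours of Ang-II; circles are libraries, bars are group means, and the dotted line parts the experiments. Ptgis reaches 1236 while the others reach at most 30.4, its SM-Cn-/- libraries lie under the Cn-Ctl libraries of the same hour, and the Ptgir mean is lowest at 2 h in WT and CsA.

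Counted together, 4 of the 6 members were called higher in WT at 24 h (Ptgs1, Ptgs2, Ptges and Ptger4), beside the 35% of all genes called there. In untreated CsA against WT, 2 were called higher (Ptgs1 and Ptger4) and 1 lower (Ptgis), beside 25.2% of all genes. At 2 h of Ang-II limma and edgeR called none of the 6 between CsA and WT, where limma called 1.33% of genes, and DESeq2 called Ptgis. In limma 3 (Ptger4, Ptgis and Ptgs2) had an unadjusted p under 0.05, beside 2546 of all 13741 genes. Markers of other cells moved in the same comparisons. In WT at 24 h all 6 macrophage and leukocyte markers were called higher (median log2 fold change 1.42), with a summed signal of 170.1 to 264 against 70.3 to 107 untreated, and so were 3 of 6 mesothelial markers, summed at 32.4 to 262 against 22.9 to 32.6, 2 of 6 adipocyte markers (1220.0 to 1516 against 497 to 961), 2 of 3 platelet markers, 2 of 6 adventitial fibroblast markers and 1 of 6 endothelial markers, while 2 of 6 smooth muscle markers were called lower. In untreated CsA against WT, all 6 endothelial markers (969 to 1113 against 368 to 625), all 6 macrophage and leukocyte markers (189 to 270 against 70.3 to 107) and 5 of 6 adipocyte markers (2448 to 3831 against 497 to 961) were called higher. No macrophage, endothelial or adipocyte marker was at 0 in every library of a group. Their part in the calls of Ptgs1, Ptgs2, Ptges, Ptger4 and Ptgis was not tested.

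At 2 h in CsA, where Ptgir fell, all 6 mesothelial markers were called lower (median -3.23), summed at 2.50 to 8.91 against 57.5 to 168 untreated, and 1 of 6 macrophage and leukocyte markers was called lower. Where Ptgs2 rose at 2 h in Cn-Ctl and WT, limma called none of the macrophage, endothelial, adipocyte, mesothelial, platelet or blood markers. Of these, edgeR and DESeq2 called 1 (Krt19, in WT). In Cn-Ctl 2 macrophage and 2 blood markers had an unadjusted p under 0.05, beside 2680 of all 14424 genes. Smooth muscle markers called higher were 1 of 6 in Cn-Ctl and 2 of 6 in WT. In Cn-Ctl 1 of 6 adventitial fibroblast markers was called higher, and Upk1b, a mesothelial marker, was at 0 in both untreated libraries. Where SM-Cn-/- was lower in Ptgs2 and Ptgis at 2 h, 2 of 6 smooth muscle markers were also called lower and 1 of 6 endothelial markers higher. At 6 h SM-Cn-/- was lower in Ptgs2. There the smooth muscle markers summed to 22389 to 28020 in SM-Cn-/- against 31273 to 32986 in Cn-Ctl, without overlap. No marker of any list was called by limma or edgeR, and DESeq2 called Acta2. An unadjusted p under 0.05 was given to 1 smooth muscle and 1 endothelial marker, beside 2012 of all 14424 genes. At 24 h, where SM-Cn-/- was lower in Ptgs2, 1 of 6 smooth muscle markers was called lower and 3 of 6 endothelial markers higher. Where CsA was lower than WT in Ptgs2 at 24 h, 1 of 6 adventitial fibroblast markers was called lower and 1 of 6 blood markers higher. Their part in these differences was not tested.

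Of 25 further genes of prostanoid supply, synthesis, transport and reception, 22 were measured between the genotypes and 23 with CsA, and Ptges3 was called in the same 3 arms as Ptgs2 at 2 h. Ptges3, a cytosolic prostaglandin E synthase that is also the p23 co-chaperone of Hsp90, rose at 2 h in Cn-Ctl (0.69 ± 0.16, adjusted p 0.00937), WT (0.77 ± 0.12, adjusted p 0.000273) and CsA (0.79 ± 0.12, adjusted p 0.000406), and its response in SM-Cn-/- was 0.32 ± 0.14 (adjusted p 0.350). It was lower in SM-Cn-/- than in Cn-Ctl at 2 h (-0.71 ± 0.14, adjusted p 0.00454), with 156 to 177 against 247 to 296, and at 24 h (-0.63 ± 0.16, adjusted p 0.0253). Between 2 and 24 h it fell in all 4 arms, by 0.61 to 0.78 on the log2 scale. The rise in Cn-Ctl was lost without untreated replicate 2 (0.63, adjusted p 0.142) or 3 (0.76, adjusted p 0.0582). After quantile normalization neither the rise in Cn-Ctl (0.34, adjusted p 0.276) nor the difference at 2 h (-0.48, adjusted p 0.0842) was called.

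Among the other prostanoid receptors, Ptger3 (EP3, which lowers cyclic AMP) was called in both experiments. At 24 h it fell in Cn-Ctl from 14.1 and 14.5 to 0.624 and 2.98 (-2.91 ± 0.68, adjusted p 0.0132), in WT (-1.06 ± 0.14, adjusted p 2.93e-05) and in CsA (-0.58 ± 0.14, adjusted p 0.0160). In SM-Cn-/- it ranged from 2.68 to 24.4 untreated and from 4.46 to 5.37 at 24 h, and was not called (-0.93 ± 0.55, adjusted p 0.564). It was higher in CsA than in WT untreated (0.44 ± 0.14), at 2 h (0.61 ± 0.14) and at 24 h (0.92 ± 0.14, adjusted p 0.00335). The Cn-Ctl call was lost without 24 h replicate 2 (-2.09, adjusted p 0.108) or either untreated replicate (adjusted p 0.0975 and 0.0901). The CsA call was lost without untreated replicate 1 (-0.48, adjusted p 0.0837) or 24 h replicate 1 (-0.54, adjusted p 0.0657) or 2 (-0.55, adjusted p 0.0624). The 2 h difference between CsA and WT was lost without any 1 of 5 libraries, the exception being WT 2 h replicate 2, with adjusted p-values of 0.0528 to 0.202, and after quantile normalization (adjusted p 0.0912). With the spread of the libraries compared only, none of these 3 calls held (adjusted p 0.0871 in Cn-Ctl, 0.0724 in CsA and 0.175 at 2 h).

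The thromboxane receptor Tbxa2r, a constrictor receptor of smooth muscle, fell in WT at 24 h (-0.76 ± 0.19, adjusted p 0.00587) and was lower in untreated CsA than in WT (-0.62 ± 0.19, adjusted p 0.0262). Ptger1 (EP1) fell at 2 h in CsA (-0.66 ± 0.22, adjusted p 0.0432). Ptger2 (EP2), at 0.0460 (no read) to 2.09 in the genotype experiment and 0.180 to 1.89 with or without CsA, and Ptgfr (the prostaglandin F receptor), at 0.470 to 13.5 over both, were called by limma in no comparison. Of the enzymes, the cytosolic phospholipase Pla2g4a, which releases arachidonic acid, rose at 2 h in CsA (0.94 ± 0.20, adjusted p 0.00425). Hpgds and Tbxas1, the hematopoietic prostaglandin D and the thromboxane synthase, rose at 24 h in WT (0.91 ± 0.27 and 1.25 ± 0.30) and fell at 2 h in CsA (-0.84 ± 0.27 and -0.98 ± 0.30), as did Hpgd, which breaks prostaglandins down (-1.56 ± 0.49). The 2 h calls of Ptger1, Hpgds and Tbxas1 in CsA were lost after quantile normalization (adjusted p 0.208, 0.138 and 0.147), and with the spread of these 6 libraries only (adjusted p at least 0.0809). Without 1 library, the CsA calls were lost in 5 of 6 fits for Ptger1 (all but untreated replicate 1) and Hpgd (all but untreated replicate 1), in 4 for Hpgds (all but untreated replicate 1 and 2 h replicate 3) and in 4 for Tbxas1 (all but untreated replicate 1 and 2 h replicate 1). The WT call of Hpgds was lost without untreated replicate 2 or 24 h replicate 1 (adjusted p up to 0.0639). The transporter Slco2a1 rose at 24 h in WT (1.31 ± 0.23, adjusted p 0.000442), and Abcc4, an exporter of prostaglandins, was called higher at 2 h in WT (0.92 ± 0.32, adjusted p 0.0489). The Abcc4 call was lost without WT 2 h replicate 2 (0.52) or any 1 of the 3 untreated libraries (adjusted p up to 0.226), and with a pseudocount of 2, all genes listed or the spread of these 6 libraries only (adjusted p 0.0611, 0.0510 and 0.0712). Pla2g2d (-1.16 ± 0.37) and Ptgr1 (-0.49 ± 0.18) were called lower at 24 h in WT. The Pla2g2d call was lost in 5 of 6 fits without 1 WT library, all but untreated replicate 2 (adjusted p up to 0.0895). That of Ptgr1 was lost without untreated replicate 1 or 2 or 24 h replicate 1 or 2 (adjusted p up to 0.180), and with edgeR, DESeq2 or the spread of these 6 libraries only (adjusted p 0.0525, 0.0508 and 0.0698). In WT, Pla2g4a, Ptgr1 and the reductase Cbr1 were lower at 24 h than at 2 h, by 0.59 to 0.78 on the log2 scale.

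**Figure D4:**
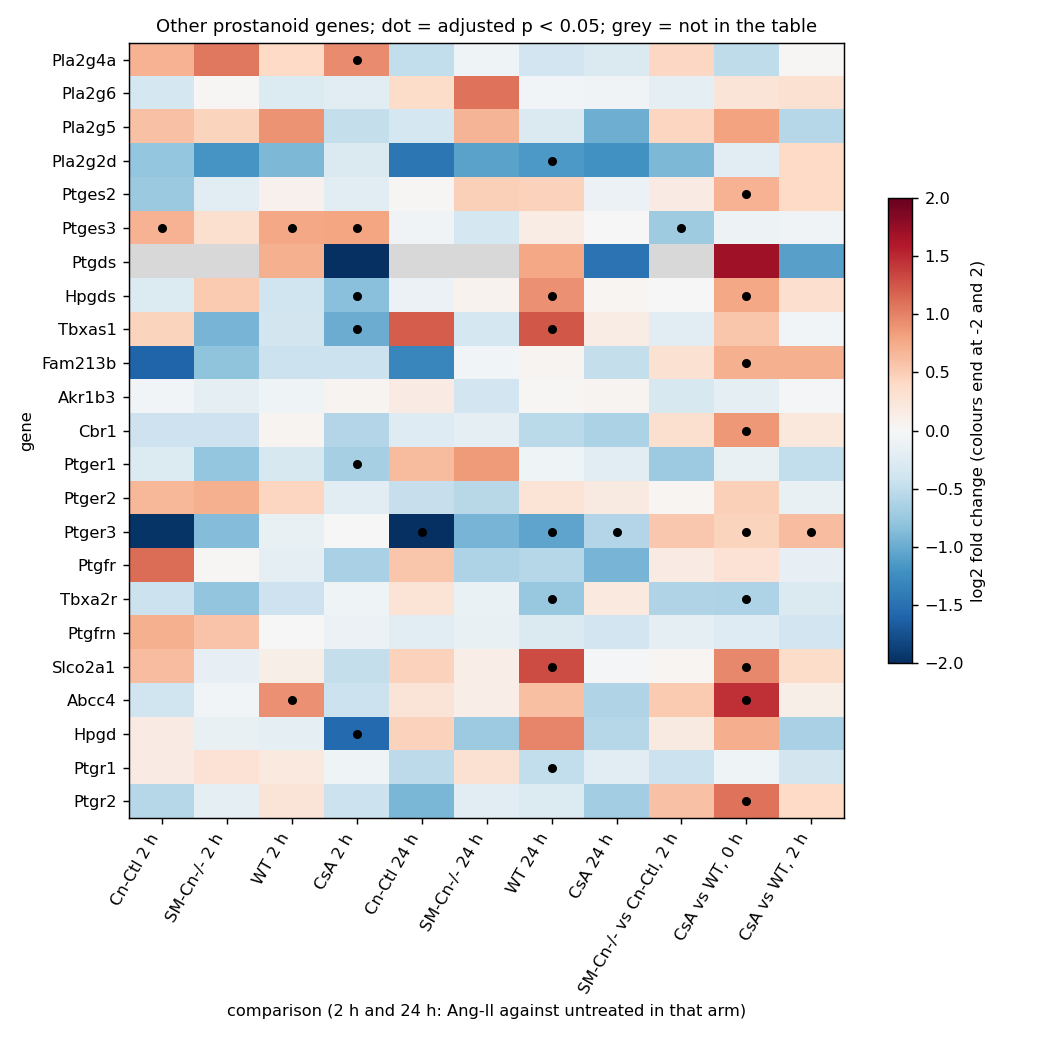
Log2 fold change (colour, ending at -2 and 2) of 23 further prostanoid genes (rows) in 11 comparisons (columns); dots are called genes and grey cells are genes not in that table. Ptges3 is called at 2 h in Cn-Ctl, WT and CsA, Ptger3 at 24 h in the same 3 arms, and the column of untreated CsA against WT holds 9 calls.

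By count, the list had 1 gene called higher and none lower at 2 h in Cn-Ctl (median log2 fold change -0.16). Over all genes the median was 0.01, and 6.23% were called. In SM-Cn-/- none was called by limma, edgeR or DESeq2 (median -0.15), beside 1.13% of all genes called by limma. There 2 had an unadjusted p under 0.05, beside 1870 of all 14424 genes. In WT 2 were higher (median 0.01, beside 21.4%), and in CsA 2 were higher and 4 lower (median -0.43, beside 20.1%). At 24 h the list had 1 lower in Cn-Ctl, beside 5.62% of all genes called. It had none in SM-Cn-/- by limma, edgeR or DESeq2, beside 0.79% called by limma. Again 2 had an unadjusted p under 0.05, beside 1660 of all 14424 genes. In CsA 1 was lower, beside 8.97%, and in WT 3 were higher and 4 lower of 23. The WT share lies under the 35% of all genes called there. In untreated CsA against WT, 8 of 23 were called higher and 1 lower (median 0.48, against -0.02 over all genes, of which 25.2% were called). The higher ones were Abcc4 (1.46 ± 0.32), Ptgr2 (1.08 ± 0.23), Slco2a1 (0.96 ± 0.23), Cbr1 (0.86 ± 0.22), Hpgds (0.78 ± 0.27), Fam213b (0.71 ± 0.24), Ptges2 (0.69 ± 0.22) and Ptger3. In that comparison the endothelial, macrophage and adipocyte markers were called higher with the values given above, and their part was not tested.

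Downstream of the receptors, the list for cyclic AMP signalling from IP and EP4 (20 genes) had 2 called higher and 1 lower at 2 h in Cn-Ctl, 5 higher and 2 lower in WT and 4 higher and 2 lower in CsA, beside 6.23%, 21.4% and 20.1% of all genes. In SM-Cn-/- limma and edgeR called none, beside 1.13% of all genes called by limma, and DESeq2 called 3 (Pde3a, Pde4a and Prkaca). There 7 had an unadjusted p under 0.05 in limma, beside 1870 of all 14424 genes. The kinase gene Sik1, itself raised by cyclic AMP in many cells, rose by 1.98 in Cn-Ctl (adjusted p 0.0104), 2.17 in WT and 1.17 in CsA. The phosphodiesterase Pde4b, which degrades cyclic AMP, rose by 1.49, 1.66 and 0.85 in those arms, and Pde4a fell by 1.18, 1.04 and 0.55. Against Cn-Ctl at 2 h, SM-Cn-/- was lower in Sik1 (-1.52, adjusted p 0.0425) and Pde4b (-1.52, adjusted p 1.47e-05), and the difference between the 2 h responses was called for Pde4b (-1.45, adjusted p 0.0115).

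Of 16 genes known to control Ptgs2 transcription or mRNA, 3 were called higher at 2 h in Cn-Ctl (median 0.45), 1 in SM-Cn-/- (median 0.18), 9 higher and 3 lower in WT (median 0.44), and 7 higher and 2 lower in CsA (median 0.33). Of all genes 6.23%, 1.13%, 21.4% and 20.1% were called in these comparisons. Atf3 rose by 4.06 in Cn-Ctl (adjusted p 2.58e-08), 3.37 in WT (adjusted p 6.14e-05) and 3.59 in CsA (adjusted p 8.15e-05). Cebpd, a C/EBP factor, rose by 1.95 in Cn-Ctl and 1.67 in WT. Zfp36, the protein tristetraprolin that binds ATTTA elements such as those shown above and hastens decay, rose by 1.56 in Cn-Ctl, 1.03 in SM-Cn-/- (adjusted p 0.0479), 2.14 in WT and 1.01 in CsA. At 2 h, SM-Cn-/- was lower than Cn-Ctl in Atf3 (-3.00, adjusted p 1.11e-06), Cebpd (-0.96, adjusted p 0.0313) and Zfp36 (-0.92, adjusted p 0.0423), and CsA was lower than WT in Zfp36 alone of this list (-1.27, adjusted p 0.00432).

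Across all 40 libraries, centred on the mean within each experiment, the 5 genes whose log2 signal was most like that of each member were taken from 10341 genes measured in both. For Ptgs2 they included Morf4l2 (Pearson r 0.91), Ctgf (0.91), Fermt2 (0.91) and Gcnt2 (0.90). For Ptgis they were Actn4 (0.92), Cspg4 (0.90), Col18a1 (0.89), Cnn1 (0.89), a smooth muscle marker, and Igf1r (0.88). For Ptgs1 they were Hfe (0.74), Golm1, Srgn, Lgals3bp and Oasl2 (0.72), for Ptges Myo7a (0.79), Cotl1, Aacs, Prdx5 and Pf4 (0.72), for Ptgir Zfp503 (0.75), Cuta, Nod1, Vamp5 and Sfxn2 (0.67), and for Ptger4 Pdik1l (0.73), Lnx1, Derl1, Klhl25 and Mettl16 (0.68). These libraries share treatments, depth and tissue makeup, so the values describe likeness across them and no more. Between members, r was 0.52 for Ptgs2 with Ptgis and -0.59 for Ptgs2 with Ptgir.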

How the data were processed

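RNA was taken from mouse aortas, 3 pooled per library, reverse transcribed with oligo-dT priming and sequenced on a Genome Analyzer IIx. The submitters' processing notes name Bowtie 0.12.7, RSEM 1.16 and GRCm38. The strand setting is not given in the sources used here. The authors removed low genes, left out 1 untreated Cn-Ctl library after a principal component analysis, and deposited 2 tables of normalized values, 1 per experiment. The signal deposited by the authors is each gene's reads plus 0.5, divided by a library size scaled between libraries. Its values are near counts per 1e6 reads but not equal to them. The summed signal per library was higher in WT at 2 h (1.04e6 to 1.15e6) than untreated (877583 to 939727), and likewise in Cn-Ctl and CsA. Between these groups the signal of a gene thus rises more, or falls less, than its count per 1e6 reads. The unit was worked out from the values: 100% of them convert to whole reads within 0.01 of a read. The 2 tables were normalized separately, so tests were made within a table only. Of the columns of per-sample values, 0 were left out.

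Because the values are not counts, limma 3.58.1 (R 4.3.3) was fitted to log2(signal + 0.5) with an intensity trend and 1 mean per group, over all libraries of an experiment, and p-values were adjusted over all protein-coding genes by the Benjamini-Hochberg method. All tests were two-sided. Genes of another biotype (2952 and 1643) and genes not in GENCODE release 21 (26 and 15) were left out. Differences are signed as the first group named less the second, and SE is limma's standard error. For a single gene, 3 libraries against 3 cannot reach an exact permutation p under 0.1, so none is given. Each library is a separate pool of aortas, so the spread covers differences between pools. Depth was recovered from the reads.

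The alternatives were 2 other pseudocounts (0.1 and 2), a mean signal of at least 5, quantile normalization, median-ratio scaling, all genes listed, a replicate block, only the groups compared, edgeR 4.0.16 (quasi-likelihood) and DESeq2 1.42.0 on the recovered reads, and leaving out each library. The limma step was tested on simulated data. The text names the 6 members, the genes of the pathway list that passed in a comparison with all its receptors, and called genes of the other lists. Some results that the rule would name are not reported here. The members and lists were chosen with earlier results of these data known.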

Additional observations from a re-analysis of the deposited data

Results flagged for a closer look

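The 24 h response to Ang-II differed between CsA and WT for 3 prostanoid genes, by an interaction term in limma with adjustment over all genes. That test called 9.42% of all genes, and these 3 are 1 of the 6 members and 2 of the 23 further prostanoid genes measured, together a share near that of all genes. For Ptgs1 the difference in log2 response, CsA less WT, was -1.03 ± 0.27 (SE, adjusted p 0.0296). For the prostaglandin transporter Slco2a1 it was -1.33 ± 0.33 (adjusted p 0.0212). For the thromboxane receptor Tbxa2r it was 0.95 ± 0.27 (adjusted p 0.0375). In all 3 the untreated CsA and WT aortas already differed, in the direction that the WT response took. Every group held 2 or 3 libraries, too few to test a single library against the rest of its group.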

How the results depend on the processing

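The counts of the 6 members called moved as follows. At 6 h in Cn-Ctl the count of 2 became 1 after quantile normalization and with only the groups compared. At 24 h in Cn-Ctl the count of 2 became 1 with a pseudocount of 0.1, all genes listed or edgeR, and 0 with only the groups compared. It was also 1 with a mean signal of at least 5, which left 4 members to test, without Ptger4 (mean 4.86). At 2 h in SM-Cn-/- 0 became 1 with only the groups compared. At 2 h in CsA 3 became 1, and at 24 h in CsA 0 became 2, after quantile normalization, and the latter 1 with DESeq2. Between the genotypes at 2 h, 2 became 1 after quantile normalization. DESeq2 called 1 where limma called 0 between CsA and WT at 2 h and for the difference of the 2 h responses between the genotypes. Apart from the removal of Ptger4 by the signal filter, the cause of these moves was not tested. Leaving out 1 library gave counts of 1 to 1, 0 to 2 and 0 to 1 in Cn-Ctl (2, 6 and 24 h), 0 to 1, 1 to 2 and 0 to 0 in SM-Cn-/-, 1 to 1 and 1 to 5 in WT (2 and 24 h), 1 to 3 and 0 to 1 in CsA, 1 to 1 between the genotypes and 0 to 1 between CsA and WT at 2 h, and 0 to 0 for both differences in 2 h response.

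The difference in the 2 h Ptgs2 response between CsA and WT changed sign from 0.04 to -0.0242 with a pseudocount of 2, and ranged from -0.287 to 0.371 without 1 library. It was the only 1 of 58 results on single genes that changed sign. Median-ratio scaling kept all 58 on their side of the threshold, quantile normalization took 13 below it and 1 past it, and the spread of only the groups compared took 17 below it and 2 past it. Of 368 fits without 1 library, 102 lost a call.

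Libraries with the same replicate number had a median r of 0.0587 over 71 pairs in the genotype experiment and -0.0283 over 45 in the CsA experiment. Pairs with different numbers had -0.0419 over 140 and -0.0129 over 90. In the genotype experiment r passed 0.1 in 27 of the 71 pairs and 36 of the 140. A weak link between same-numbered libraries cannot be told from none by these values, and the numbers are used here to name libraries. With the replicate block 5 of the 58 results lost their call, among them the fall of Ptgs2 from 2 to 24 h in Cn-Ctl (-1.86, adjusted p 0.0515). Depth limits what could be called in the genotype experiment, where Ptger4 rests on 1 to 81 reads per library, Ptgir on 5 to 48 and Pla2g2d on 0 to 20.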

Other observations

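Arachidonic acid also feeds the leukotriene and epoxide enzymes, and 12 such genes were listed beside the prostanoid genes. In the genotype experiment all 12 were measured and limma and edgeR called none, while DESeq2 called Ltc4s at 24 h in Cn-Ctl and Mgll from 2 to 24 h in SM-Cn-/-. At 24 h in Cn-Ctl 4 of the 12 had an unadjusted p under 0.05 in limma, beside 2890 of all 14424 genes. In the CsA experiment 11 were measured. In WT at 24 h, 3 were called higher: Alox5ap, which presents arachidonic acid to 5-lipoxygenase (2.17 ± 0.24, adjusted p 6.7e-06), Alox5, the lipoxygenase itself (1.46 ± 0.26, adjusted p 0.000477), and Ltc4s, the leukotriene C4 synthase (1.23 ± 0.31, adjusted p 0.00651). Their list had a median of 0.57, against 0.00 over all genes, of which 35% were called, a larger share than 3 of 11. In untreated CsA against WT, 6 of the 11 were called higher (median 0.90), beside 25.2% of all genes called, with Ephx2, the soluble epoxide hydrolase, at 2.11 ± 0.32 (adjusted p 0.000838). The 24 h response of Alox5ap was smaller in CsA than in WT by a log2 difference of -1.75 ± 0.33 (adjusted p 0.00759). All 6 macrophage and leukocyte markers were called higher both in WT at 24 h and in untreated CsA against WT, and their part was not tested.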
